A study of Mus musculus with 3 samples.

Results

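Histone genes were followed across 3 arrays of cultured mouse cells. The members were all genes named as histones of the 4 histone clusters, the replacement histones H2ax, H2az1, macroH2A, H3.3 and the H1 genes outside the clusters, together with the histone regulators Npat and Slbp. The gene table lists 87 such genes, of which 60 had a named probe on the array and 59 were well above background on at least 1 array, out of 15761 genes that met the same criterion. These 59 comprised 47 replication-dependent genes, 9 replacement genes, 1 macroH2A pseudogene that was put in neither class, and the 2 regulators.

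The cells were primary endothelial cells of the mouse corpus cavernosum (strain C57BL/6), kept for 48 h in 30 mmol glucose with siRNA against Ninj1 (200 pmol), in 30 mmol glucose, or in 5 mmol glucose. They are called here the siRNA array, the high-glucose array and the normal-glucose array, after the labels. Each array was hybridised once with RNA pooled over 3 numbered samples, so there was 1 array per group and no replicate. No test was possible, and every "higher" or "lower" compares these arrays with each other, not the conditions. The labels do not say whether the cells without siRNA were given a control siRNA, and the medium of all groups contained serum and vascular endothelial growth factor A, per the labels' protocols.

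The target of the siRNA went against the label, since Ninj1 read 25539 on the siRNA array, 16291 on the high-glucose array and 20413 on the normal-glucose array. The words in the file names also exchange the 2 high-glucose arrays relative to the labels, and with that exchange every sign of the first comparison below would turn. A second conflict touches other arrays: the slide position recorded in the file is 1 for the siRNA array and 2 for the normal-glucose array, whereas their file names carry 2 and 1, and the high-glucose array has 3 in both. Exchanging the siRNA and normal-glucose arrays was not computed. The arrays had 70.6%, 67.6% and 67.1% of probes above background (siRNA, high glucose, normal glucose). Their 75th percentiles of signal were 2024, 1729 and 1780 in the same order, and the summed marker signals below were not scaled to them. Of 10 endothelial markers 7 passed background on 1 or more arrays, with a summed signal of 9402, 7960.5 and 8079 in that order, of which Kdr alone gave 8278 on the siRNA array, and Erg, Emcn and Tie1 were not above it on any. The summed signal of the 8 fibroblast markers, all above background, was 578458, 791105 and 797885 in the same order. Dcn alone gave 380630, 432729 and 435886 of these sums. The sum of 7 of 8 smooth muscle and pericyte markers was 27976, 64237 and 70602 (Myh11 not above background on any array). That of 4 of 5 macrophage markers was 4119, 5273 and 5340 (Cd68 not above background on any array). Of 5 epithelial markers 2 were above background, with summed signals of 224, 141 and 161, and Epcam, Krt8 and Cdh1 were not. On the siRNA array, against the high-glucose array, the log2 difference was below 0 for 8 of 8 fibroblast markers (median -1.70), 5 of 6 smooth muscle and pericyte markers measured on both (median -1.23) and 3 of 4 macrophage markers (median -1.65). The exceptions were Cspg4 (1.24) and Csf1r (0.11), and Des was above background on the siRNA array alone. Of 5 endothelial markers measured on both arrays, Cdh5 (1.51) was higher and Vwf (-1.26) lower by at least 2-fold, with a median of -0.05, and Tek was above background on the other arrays but not on the siRNA array. The part of these cell types in the histone differences was not tested. In RNA pooled from whole cultures, fewer cells of a type and less RNA per cell cannot be told apart.

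Replication-dependent histone genes supply the H1, H2A, H2B, H3 and H4 proteins that package newly copied DNA. They lie in clusters, have no introns, and are transcribed mainly in S phase under Npat, a coactivator switched on by cyclin E with Cdk2. Most of their mRNAs end in a stem-loop bound by Slbp in place of a poly(A) tail. Replacement histones are made from polyadenylated mRNAs through the whole cell cycle. H2ax lies between the classes, because its gene gives both kinds of mRNA end.

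Signals are processed intensities on a linear scale, and differences are given as log2 values after each array was scaled to its 75th percentile. Unless another comparison is named, a difference is the siRNA array minus the high-glucose array, and the highest and lowest gene of a type are those under this scaling. A spot repeat had a log2 SD that gives 0.08 for a difference of 2 spots, which covers spot noise only. Each of the 59 members was read by 1 spot of the probe used. Of the 8 members with more than 1 probe above background on all arrays, 7 had probes with the same sign in the siRNA against high-glucose comparison, no more than 0.14 apart, and the exception was H4c9, with 0.12 and -0.39. Genes of the clusters are near-identical in their coding parts, so a value assigned to 1 H2A, H2B, H3 or H4 gene can hold signal of its copies.

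Between the siRNA and high-glucose arrays the replication-dependent genes spread far in both directions. Of 44 measured on both arrays, 8 were at least 2-fold higher on the siRNA array and 5 were at least 2-fold lower, which is 18.2% and 11.4%, against 6.03% and 7.18% of the 14521 genes measured on both. At 1.5-fold the counts were 21 higher and 11 lower, against 13.8% and 14.8% of all genes. Their median log2 difference was 0.49, with the middle 50% of values spanning 1.39, against a median of 0.01 and a span of 0.67 over all genes. The direction went largely with the type of histone: H2A and H4 genes were mostly higher on the siRNA array and H2B genes mostly lower, while H1 genes divided evenly.

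**Figure D1:**
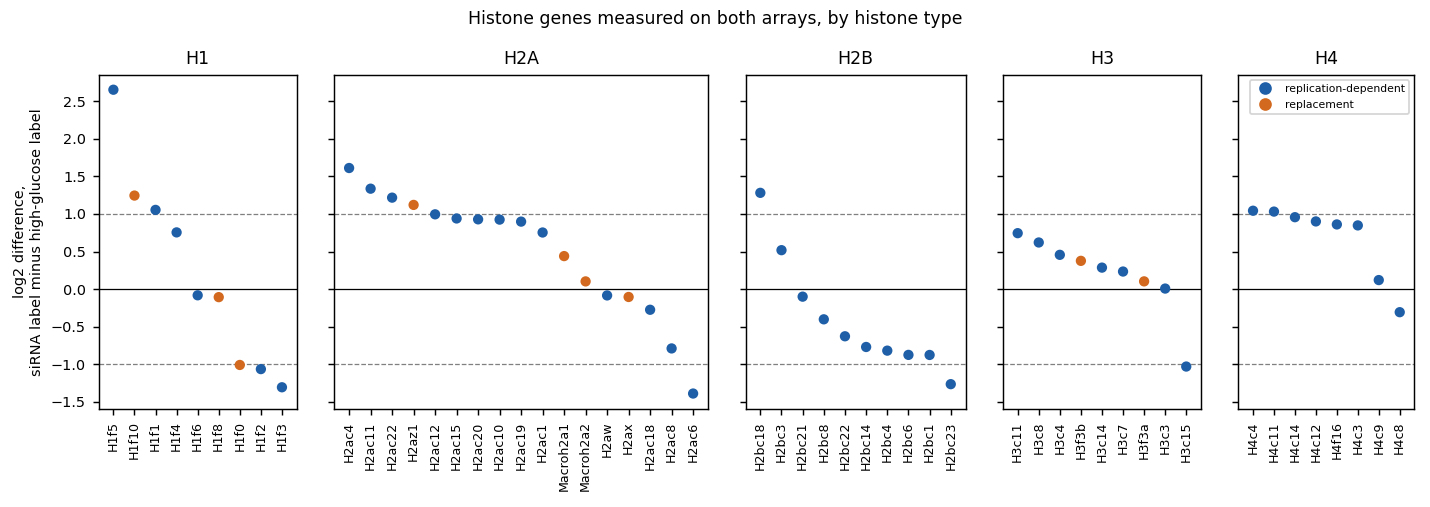
Log2 difference (vertical axis) between the siRNA and the high-glucose array for each histone gene measured on both (horizontal axis), ordered within each histone type. Blue points are replication-dependent genes, orange points are replacement genes, and dashed lines mark 2-fold. H2A and H4 genes lie mostly above 0, H2B genes mostly below it, and H1f5 stands highest at 2.65.

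The replacement genes were centred nearer to 0. Of 9 measured on both arrays, 2 were at least 2-fold higher on the siRNA array and 1 at least 2-fold lower, or 22.2% and 11.1%, against 6.03% and 7.18% of all genes. Their median log2 difference was 0.10 and the middle 50% of values spanned 0.54, while the share past 2-fold was close to that of the replication-dependent genes. The median of the replication-dependent genes exceeded it by 0.38. This gap depended on which genes made up the classes and on the background correction: it was 0.13 without the H2A genes, 0.25 without the H1 genes in either class, 0.22 with H2ax counted as replication-dependent and 0.11 after the normexp correction.

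H1, the linker histone, binds DNA between nucleosomes, and its subtypes gave the widest range. H1f5 (Hist1h1b, the H1.5 subtype) read 2353 on the siRNA array, 319.6 on the high-glucose array and 348 on the normal-glucose array. It was thus 6.29-fold higher on the siRNA array than on the high-glucose array (log2 2.65), with the high-glucose and normal-glucose arrays close to each other. H1f1 (Hist1h1a) read 218 on the siRNA array, 89.8 on the high-glucose array and 92.4 on the normal-glucose array, which is 2.08-fold higher on the siRNA array. H1f4 (Hist1h1e), with 3501 on the siRNA array, 1773 on the high-glucose array and 1875 on the normal-glucose array, was 1.69-fold higher.

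The opposite held for H1f2 and H1f3. H1f2 (Hist1h1c, the H1.2 subtype) read 8331 on the siRNA array, 14884 on the high-glucose array and 15575 on the normal-glucose array, 2.09-fold lower on the siRNA array. H1f3 (Hist1h1d), a dim probe, read 21.0 on the siRNA array, 44.3 on the high-glucose array and 46.7 on the normal-glucose array, 2.47-fold lower. H1f6 (Hist1h1t), the testis-specific subtype, stayed near its level on the other arrays, with 43.5 on the siRNA array, 39.3 on the high-glucose array and 38.1 on the normal-glucose array. Among the H1 genes outside the clusters, H1f0, the subtype of differentiated cells, read 50.9 on the siRNA array, 87.5 on the high-glucose array and 82.4 on the normal-glucose array and was 2.01-fold lower, at the edge of the 2-fold threshold. H1f10 (H1fx) went the other way, with 166 on the siRNA array, 59.9 on the high-glucose array and 58.9 on the normal-glucose array, 2.37-fold higher on the siRNA array. The oocyte subtype H1f8 (H1foo) read 213 on the siRNA array, 196 on the high-glucose array and 223 on the normal-glucose array, and after scaling its log2 difference was -0.11.

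The stretches before the start sites of the H1 genes are shown because cluster genes with the same promoter letters gave values that point both ways. Sequences are from RefSeq on GRCm38.p6, each the 130 bases before the annotated start, and capitals mark AAACACA (the letters of the H1 box), CCAAT and TATAA on either strand. In the H1f5 stretch the given and the reverse-complement TATAA overlap.
H1f5 (chr13:21780626-21780755, minus strand): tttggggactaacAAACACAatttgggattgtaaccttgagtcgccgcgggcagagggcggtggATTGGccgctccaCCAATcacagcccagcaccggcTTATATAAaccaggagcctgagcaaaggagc
H1f1 (chr13:23763538-23763667, plus strand): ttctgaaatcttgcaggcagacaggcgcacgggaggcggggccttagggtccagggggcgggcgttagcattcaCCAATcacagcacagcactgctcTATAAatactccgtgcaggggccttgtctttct
H1f4 (chr13:23622559-23622688, minus strand): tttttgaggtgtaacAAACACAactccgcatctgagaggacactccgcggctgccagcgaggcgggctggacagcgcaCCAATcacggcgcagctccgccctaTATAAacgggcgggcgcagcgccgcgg
H1f2 (chr13:23738677-23738806, plus strand): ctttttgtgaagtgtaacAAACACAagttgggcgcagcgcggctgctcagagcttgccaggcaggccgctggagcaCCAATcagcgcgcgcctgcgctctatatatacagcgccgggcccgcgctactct
H1f3 (chr13:23554902-23555031, plus strand): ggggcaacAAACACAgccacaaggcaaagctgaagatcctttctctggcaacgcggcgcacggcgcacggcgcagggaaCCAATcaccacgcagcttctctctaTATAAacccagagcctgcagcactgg
H1f0 (chr15:79028082-79028211, plus strand): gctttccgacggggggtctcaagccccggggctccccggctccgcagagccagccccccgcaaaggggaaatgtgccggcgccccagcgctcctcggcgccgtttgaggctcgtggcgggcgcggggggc

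AAACACA began 117 bases before the start in H1f5, 115 in H1f4, 112 in H1f2 and 122 in H1f3, and was not among these letters of H1f1. CCAAT began 53, 56, 52, 54 and 51 bases before the start in H1f5, H1f1, H1f4, H1f2 and H1f3. TATAA stood 28, 33, 27 and 26 bases before the start in H1f5, H1f1, H1f4 and H1f3 and was not among the letters of H1f2, and none of the motifs were found in the stretch before H1f0. Thus H1f5 and H1f4, higher on the siRNA array, and H1f2 and H1f3, lower on it, carried AAACACA and CCAAT at nearly the same distances. A match of letters is a description of these windows and says nothing of what binds there.

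H2A genes, which encode a core histone that pairs with H2B in the nucleosome, were mostly higher on the siRNA array. Of 13 measured on both arrays, 9 were at least 1.5-fold higher than on the high-glucose array and 2 at least 1.5-fold lower. That is 69.2% and 15.4%, against 13.8% and 14.8% of all genes. The median log2 difference was 0.92. H2ac4 (Hist1h2ab) differed most, reading 9215 on the siRNA array, 2577 on the high-glucose array and 2922 on the normal-glucose array, 3.05-fold higher on the siRNA array. H2ac11 (Hist1h2ag) read 84904 on the siRNA array, 28730.5 on the high-glucose array and 31864 on the normal-glucose array, 2.52-fold higher. H2ac22 (Hist1h2an) read 73751 on the siRNA array, 27107 on the high-glucose array and 30665 on the normal-glucose array, 2.32-fold higher.

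5 more H2A genes gave nearly equal differences of 0.90 to 0.99: H2ac19, H2ac10, H2ac20, H2ac15 and H2ac12, of which H2ac19 and H2ac20 lie on chromosome 3 and the others on chromosome 13. Their probes may read shared sequence, so they may not be separate measurements. H2ac6 (Hist1h2ac) was the lowest of the type, with 109 on the siRNA array, 243 on the high-glucose array and 248 on the normal-glucose array, 2.62-fold lower on the siRNA array. H2ac8 (Hist1h2ae) was also lower, with 42.6 on the siRNA array, 63.0 on the high-glucose array and 59.7 on the normal-glucose array (log2 -0.79). H2ac18 and H2aw differed by -0.28 and -0.08, and H2ac1, a germ-line H2A, by 0.75.

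H2B genes, which encode the other core histone of that pair, were mostly lower on the siRNA array. Of 10 measured on both arrays, 8 were lower on the siRNA array than on the high-glucose array, 6 of them by at least 1.5-fold, and the median log2 difference was -0.70. H2bc23 (Hist1h2bq) was lowest, reading 152 on the siRNA array, 312 on the high-glucose array and 349 on the normal-glucose array, 2.4-fold lower on the siRNA array. H2bc4 (Hist1h2bc) was also lower, with 55656 on the siRNA array, 83866 on the high-glucose array and 84773 on the normal-glucose array (log2 -0.82). H2bc14, H2bc6, H2bc1 and H2bc22 differed by -0.77, -0.88, -0.88 and -0.63, where H2bc1 is a germ-line H2B.

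H2bc18 (Hist2h2bb, on chromosome 3) was the exception, with 314 on the siRNA array, 110.4 on the high-glucose array and 137 on the normal-glucose array, 2.43-fold higher on the siRNA array. H2bc3 (Hist1h2bb) was higher by less, with 43.5 on the siRNA array, 25.9 on the high-glucose array and 28.7 on the normal-glucose array (log2 0.52), but its difference was -0.02 after the normexp correction. H2bc8 and H2bc21 differed by -0.40 and -0.10. The gene table gives H2bc4, H2bc6 and H2bc8 each other's older names, so their probes may be exchanged among them; all of these were lower on the siRNA array.

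Many H2A and H2B genes are arranged head to head and share the stretch between their starts. Among members with a promoter window 10 such pairs were found. Of these, 3 had both genes measured on both arrays, and in 2 of the 3 the partners pointed opposite ways. H2bc4 and H2bc21 had no window, so any pair with them is missing from this count. H2bc4 (-0.82) came next to H2ac6 (-1.39) in the chromosomal order of measured genes, and both were lower on the siRNA array. H2ac22 differed by 1.22 and its partner H2bc22 by -0.63. The H2bc22 probe was dim, reading 76.1, 100 and 112 on the siRNA, high-glucose and normal-glucose array. H2ac1 differed by 0.75 and H2bc1 by -0.88. H2ac1 read 406, 206 and 221 in the same order, and H2bc1, a germ-line gene, read 9893, 15513 and 16332. Whether each of these probes read its own gene alone was not tested. H2ac8 and H2bc8 were both lower on the siRNA array, by -0.79 and -0.40. The stretches shared by the first and the last of these pairs are shown, with that before H2ac6, the H2A gene with the lowest difference, because they set an opposite pair beside genes that were lower on the siRNA array. They run 5′ to 3′ towards the H2A start (RefSeq, GRCm38.p6), and capitals mark the octamer ATTTGCAT, the CCAAT letters and the TATAA letters on either strand.
H2ac22 to H2bc22 (chr13:21787249-21787487, minus strand): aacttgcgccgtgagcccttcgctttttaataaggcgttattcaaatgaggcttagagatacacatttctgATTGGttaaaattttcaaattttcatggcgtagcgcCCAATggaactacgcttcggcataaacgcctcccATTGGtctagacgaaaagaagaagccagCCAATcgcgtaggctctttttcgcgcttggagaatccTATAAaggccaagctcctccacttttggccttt
H2ac8 to H2bc8 (chr13:23571221-23571399, minus strand): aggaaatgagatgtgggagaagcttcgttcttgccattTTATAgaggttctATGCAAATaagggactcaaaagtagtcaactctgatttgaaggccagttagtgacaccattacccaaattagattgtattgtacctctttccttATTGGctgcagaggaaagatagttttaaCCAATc
H2ac6 (chr13:23683960-23684139, minus strand): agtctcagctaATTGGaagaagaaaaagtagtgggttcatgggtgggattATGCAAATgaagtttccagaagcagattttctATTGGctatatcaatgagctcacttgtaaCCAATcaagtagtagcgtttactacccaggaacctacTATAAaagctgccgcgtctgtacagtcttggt

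The stretch of the opposite pair, 239 bases long, held CCAAT on 4 places and TATAA 33 bases before the H2ac22 start, and no octamer. The 179 bases between H2ac8 and H2bc8 held the octamer 128 bases before the H2ac8 start, and the 180 bases before H2ac6 held it 130 bases before the start. These stretches were picked, and that of the other opposite pair, H2ac1 and H2bc1, is not shown. The octamer lay in 5 of 20 windows of genes at least 1.5-fold higher on the siRNA array and 4 of 10 at least 1.5-fold lower. No link between the octamer and the direction was tested.

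H3 genes, whose products carry many of the known histone marks, lay closer to 0. Of 7 measured on both arrays, 6 were above 0 and 1 below, where 7410 of all 14521 genes were above 0. By at least 1.5-fold, 2 were higher on the siRNA array than on the high-glucose array and 1 lower. That is 28.6% and 14.3%, against 13.8% and 14.8% of all genes. The median log2 difference was 0.29. H3c11 (Hist1h3i) was highest, with 109.9 on the siRNA array, 56.0 on the high-glucose array and 59.6 on the normal-glucose array, 1.67-fold higher. H3c15 (Hist2h3c2, on chromosome 3) was the lowest, with 1536 on the siRNA array, 2680.3 on the high-glucose array and 2830.0 on the normal-glucose array, 2.04-fold lower on the siRNA array. The others were H3c8 (0.62), H3c4 (0.46), H3c14 (0.29), H3c7 (0.23) and H3c3 (0.01). The order among the higher genes held in part: after normexp H3c4 was at 0.39 and H3c8 and H3c11 at 0.33 and 0.325.

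H4 genes, which encode the partner of H3 in the nucleosome core, were mostly higher on the siRNA array. Of 8 genes measured on both arrays, 7 were higher on the siRNA array, 6 of them by at least 1.5-fold, and the median log2 difference was 0.88. H4c4 (Hist1h4d) read 15795 on the siRNA array, 6549.8 on the high-glucose array and 7028 on the normal-glucose array, 2.06-fold higher on the siRNA array. H4c11 (Hist1h4j) read 971 on the siRNA array, 406 on the high-glucose array and 393 on the normal-glucose array, 2.04-fold higher. H4c14, H4c12, H4f16 (Hist4h4, the lone cluster gene measured on chromosome 6) and H4c3 differed by 0.96, 0.90, 0.86 and 0.85. The remaining gene above 0 was H4c9, at 0.12, and its second probe gave -0.39. H4c8 (Hist1h4h) was the lowest, with 287 on the siRNA array, 303 on the high-glucose array and 339.6 on the normal-glucose array (log2 -0.31).

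**Figure D2:**
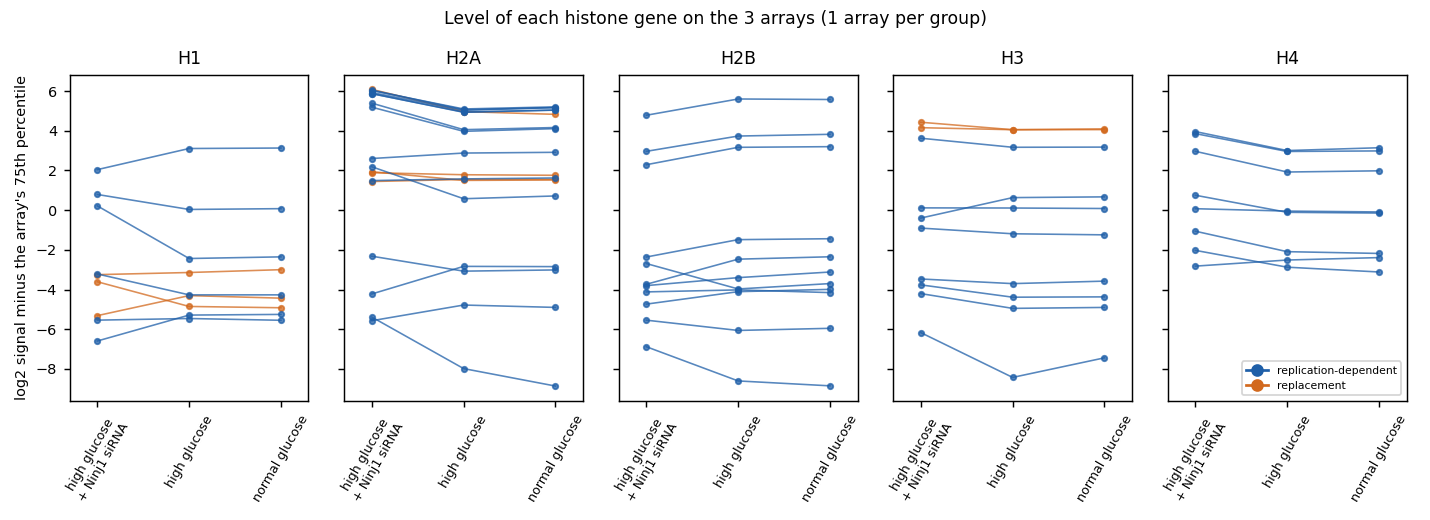
Level of each histone gene that passed the filter on the siRNA, high-glucose and normal-glucose array (left to right), as log2 signal minus the array's 75th percentile, with 1 line per gene, blue for replication-dependent and orange for replacement genes. Values come from 1 array per group and carry no error bar, and genes above background only on the siRNA array are drawn with their signal on the other arrays. The lines between the high-glucose and the normal-glucose array are nearly flat, while those to the siRNA array fan out.

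Several of these genes left the 2-fold range under another background correction or scaling, all with the same sign. After normexp the log2 difference was -0.50 for H1f3, -0.83 for H2bc23, -0.97 for H3c15, -0.69 for H1f0, 0.57 for H1f1, 0.59 for H1f10, 0.81 for H2bc18 and 0.91 for H4c11. After quantile normalization it was 0.99 for H4c4 and 0.93 for H2az1. H1f5, H1f2, H2ac4, H2ac11, H2ac22 and H2ac6 stayed past 2-fold in all 9 settings computed for single genes, the reported setting included. H4c4 and H2az1 were past 2-fold in 7 of these 9, H1f0 in 6 and the other genes named above in 8. The lowest value of H4c4 over the settings was 0.97. H1f5 lay between 2.45 and 2.68. Among genes within 2-fold, H2bc3, H1f6, H3c3, H3f3a and H4c9 changed sign in 1 of the 9.

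3 replication-dependent genes were above background on the siRNA array alone. They are left out of the counts of genes measured on both arrays, since they had to differ in that direction. They remain among the genes that passed, in the promoter windows where matched, and in the setting without a filter on dim probes. H2ac21 read 48.5 on the siRNA array, 6.85 on the high-glucose array and 3.83 on the normal-glucose array, at least 2.53-fold higher on the siRNA array than on the high-glucose array. H3c1 read 28.1 on the siRNA array, 5.03 on the high-glucose array and 10.3 on the normal-glucose array, at least 1.47-fold higher. H2bu2 read 17.2 on the siRNA array, 4.45 on the high-glucose array and 3.86 on the normal-glucose array, just inside the criterion, and no fold is given. H1f7, an H1 of developing sperm counted with the replacement genes, which read 14.9, 9.90 and 14.3 in the same order, was not above background on any array.

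The cluster on chromosome 13 held 34 of the measured genes, 21 with a difference above 0 and 13 below. Of its 33 neighbouring pairs 15 had opposite signs, a count given as a description from which nothing is read about neighbours. Its median log2 difference was 0.49, and that of the 8 genes measured on chromosome 3 was 0.59.

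**Figure D3:**
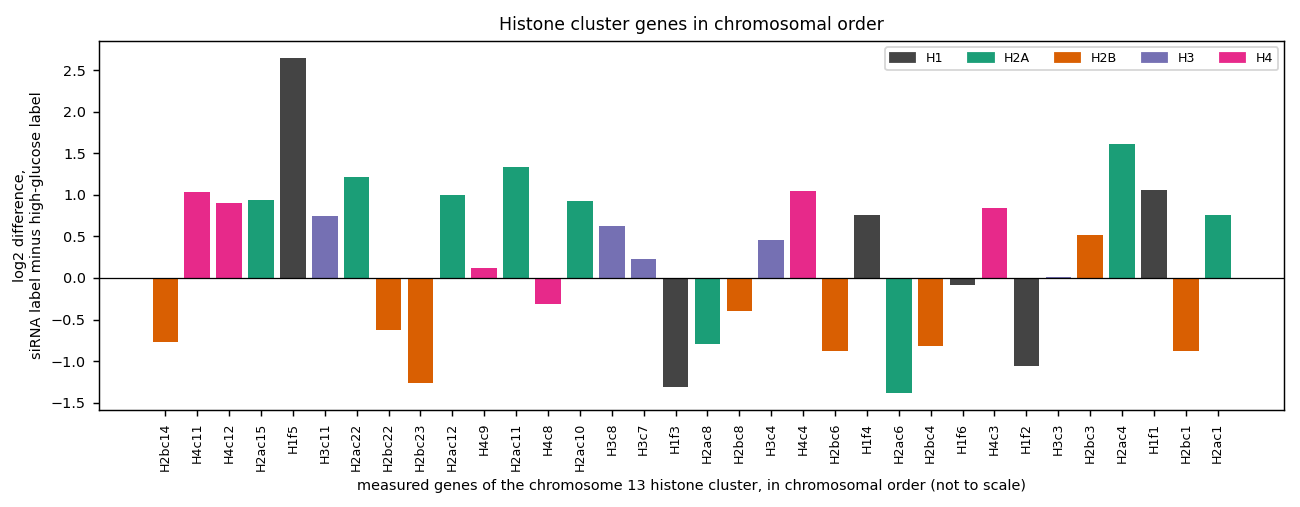
Log2 difference between the siRNA and the high-glucose array (vertical axis) for the 34 measured genes of the chromosome 13 histone cluster in chromosomal order (horizontal axis, not to scale), coloured by histone type. Bars above and below 0 are mixed along the cluster, and 15 of 33 neighbouring pairs have opposite signs.

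Promoter windows, 300 bases from 250 before the annotated start to beyond it, were found for 52 of the 59 members. Not matched were H2ax, H2bc21, H2bc4, H3c1, H3c7, H4c14 and Macroh2a3. Of the 42 replication-dependent windows, 37 held CCAAT (88.1%), 33 TATAA (78.6%), 12 the octamer ATTTGCAT (28.6%) and 9 AAACACA (21.4%), against 37.9%, 25.5%, 1.75% and 7.14% of 27025 promoter windows of the same length, counted on both strands. Of the 8 replacement windows, 5 held CCAAT and 1 TATAA. The octamer lay in 7 of 14 H2A windows and 5 of 9 H2B windows and in none of the H1, H3 and H4 windows. Of the 20 windows of genes at least 1.5-fold higher on the siRNA array, 5 held the octamer and 17 TATAA, and of the 10 windows of genes at least 1.5-fold lower, 4 held the octamer and 6 TATAA.

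Among the replacement histones of the core, H2az1 (H2afz), the H2A.Z variant found at promoters, stood apart. It read 137374 on the siRNA array, 53991 on the high-glucose array and 50482 on the normal-glucose array, 2.17-fold higher on the siRNA array than on the high-glucose array, and its second probe gave the same log2 difference of 1.12. H2ax (H2afx), which is phosphorylated at DNA breaks, read 5502 on the siRNA array, 5055 on the high-glucose array and 5216 on the normal-glucose array (log2 -0.10). Macroh2a1 (H2afy), a variant with a large extra domain, read 7759.7 on the siRNA array, 4889 on the high-glucose array and 5101 on the normal-glucose array (log2 0.44).

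The remaining replacement genes differed by less than 1.5-fold. Macroh2a2 (H2afy2) read 7485 on the siRNA array, 5956 on the high-glucose array and 6011 on the normal-glucose array (log2 0.10). The genes of H3.3, the replacement variant of H3, were H3f3a and H3f3b. H3f3a read 36056 on the siRNA array, 28684 on the high-glucose array and 29622 on the normal-glucose array (log2 0.10). H3f3b read 43578 on the siRNA array, 28691 on the high-glucose array and 30355 on the normal-glucose array (log2 0.38). The macroH2A pseudogene Macroh2a3 differed by 0.21. Each further probe of H3f3a and H3f3b had the same sign.

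The regulators pointed in opposite directions. Slbp, which binds the stem-loop of these mRNAs, read 1673 on the siRNA array, 764 on the high-glucose array and 809.9 on the normal-glucose array, 1.87-fold higher on the siRNA array than on the high-glucose array, and its second probe also gave 0.90 on the log2 scale. Npat read 20.6 on the siRNA array, 161 on the high-glucose array and 27.0 on the normal-glucose array, which is 9.12-fold lower on the siRNA array. The high-glucose array was the one that stood apart for Npat, by 6.12-fold from the normal-glucose array as well, whereas the siRNA and normal-glucose arrays differed by -0.58 on the log2 scale. That value came from 1 dim spot per array, and its log2 difference was -1.66 after the normexp correction.

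Between the high-glucose and normal-glucose arrays the histone genes lay close together. Of 44 replication-dependent genes measured on both, 0 were 2-fold higher or lower, against 0.276% and 0.193% of all 14491 genes, and 0 passed 1.5-fold either way, against 0.649% and 0.524% of all genes. Their log2 differences ran from -0.28 to 0.24 with a median of -0.05, and those of the 9 replacement genes from -0.14 to 0.14 with a median of -0.004. H2bc8 had the lowest value (164 on the high-glucose array and 205 on the normal-glucose array) and H4c3 the highest (236 and 206). Npat was the single member past 2-fold. Of the 13 H2A genes 11 lay below 0, as did 8139 of all 14491 genes, and the H2A median was -0.11 against -0.01 over all genes.

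The siRNA array differed from the normal-glucose array much as from the high-glucose array, and these comparisons share the siRNA array. Of 44 replication-dependent genes, 8 were higher by 2-fold or more and 5 lower by as much, against 5.82% and 7.03% of all 14471 genes, and at 1.5-fold 21 were higher and 12 lower, against 13.2% and 14.8%. H1f5 differed by 2.57, H2ac4 by 1.47 and H4c11 by 1.12, while H2bc23 differed by -1.39, H2ac6 by -1.38, H1f3 by -1.34, H1f2 by -1.09 and H3c15 by -1.07. H4c3, with 497 on the siRNA array and 206 on the normal-glucose array, passed 2-fold in this comparison at 1.09, and H4c4, at 0.98, did not. Of the replacement genes, H2az1 (1.26) and H1f10 (1.31) passed 2-fold upward and H1f0 (-0.88) missed the threshold. The replication-dependent median was 0.43 and the replacement median 0.13.

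Genes that act on histones outside the family were set beside these values. Of 25 genes of histone mRNA transcription and 3′ processing, Npat and Slbp included, 5 were at least 2-fold higher on the siRNA array than on the high-glucose array and 1, Npat, lower, which is 20.0% and 4.0%, against 6.03% and 7.18% of all genes, with a median of 0.39. The cyclins Ccne2 (2.26) and Ccna2 (2.03), their kinase Cdk2 (1.33), Ccne1 (1.29) and the U7 snRNP protein Lsm11 (1.16) were the 5. Ccna2 read 5722 on the siRNA array, 1195 on the high-glucose array and 1253 on the normal-glucose array. The histone mRNA exonuclease Eri1 differed by 0.95 and the polyadenylation factor Cstf2 by 0.94, whereas the H4 promoter factor Hinfp differed by 0.43 and the octamer-binding Pou2f1 by 0.31.

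Of 25 histone chaperones, which carry histones to and from DNA, 9 were at least 2-fold higher on the siRNA array and 0 at least 2-fold lower, against 6.03% and 7.18% of all genes, with a median of 0.32. Chaf1b, a subunit of the assembly factor CAF-1 that works at replication forks, read 14921 on the siRNA array, 2309 on the high-glucose array and 2387 on the normal-glucose array (log2 2.46). Asf1b, a chaperone of H3 and H4, read 6369 on the siRNA array, 1053 on the high-glucose array and 1035 on the normal-glucose array (log2 2.37), while its paralogue Asf1a was lower, at -0.80. Mcm2 (1.93), Ncl (1.66), Hat1 (1.52) and the CENP-A chaperone Hjurp (1.36) followed. The chaperones of H3.3 were Hira (-0.34), Cabin1 (-0.38), Ubn1 (0.11), Daxx (-0.32) and Atrx (-0.17), none of which differed by 1.5-fold.

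Of 20 S-phase genes, 17 were at least 2-fold higher on the siRNA array than on the high-glucose array and 0 at least 2-fold lower, against 6.03% and 7.18% of all genes. Their median was 1.67, above the replication-dependent histone median of 0.49. Mcm2 belongs to this list and to the chaperones. Mcm5, a subunit of the replicative helicase, differed by 2.39, Top2a by 2.29, Mcm3 by 2.28, Pola1 by 2.21, Cdc6 by 2.16 and Cdt1 by 2.09. Their range was -0.19 to 2.39, and that of the replication-dependent histones was -1.39 to 2.65, with H1f5 alone above the highest S-phase gene. Of 3 further histone variants, the centromeric Cenpa differed by 1.37, H2aj by 0.85 and H2az2, the paralogue of H2az1, by 0.19. H2aj read 135613, 64422 and 73048 on the siRNA, high-glucose and normal-glucose array, near the signals of H2ac10 (131494, 59188 and 65596). Its probe may read sequence shared with the H2A cluster genes, which was not tested.

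**Figure D4:**
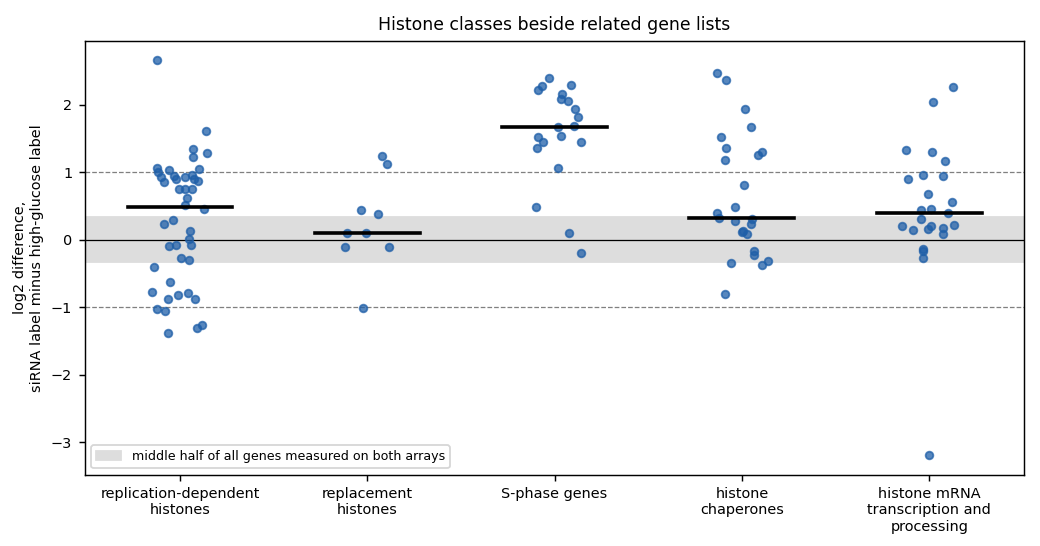
Log2 difference between the siRNA and the high-glucose array (vertical axis) for each measured gene of 5 groups, with 1 point per gene, black bars at the group medians, dashed lines at 2-fold and a grey band for the middle 50% of all 14521 genes. S-phase genes sit highest, with a median of 1.67, while replication-dependent histones spread above and below the band around a median of 0.49, and Npat is the lowest point at -3.19.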

How the data were processed

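Total RNA was labelled with Cy3 and hybridised to 3 Agilent 1-colour arrays, which shared 1 slide and 1 scan, so no batch term could be fitted. Per the file headers, the authors extracted each spot's intensity with Feature Extraction 11.0.1.1, and the deposited processed signal is linear with background already subtracted. The primer used for labelling is not given in the sources used here. Most replication-dependent histone mRNAs lack a poly(A) tail, so their signal can depend on that primer.

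From these files, outlier spots were left out (107, 147 and 109 on the siRNA, high-glucose and normal-glucose array), log2 of the signal was averaged per probe, and each array's 75th percentile was subtracted. A gene was represented by 1 probe, and 26055 of 39429 probes were named. A probe counted as above background where the scanner software marked at least 50% of its spots so. Where 1 of the arrays was below background, the difference is a bound against the lowest signal above background (11.7, 16.4 and 16.9 in the same order). With 1 array per group the number of arrays limits the precision and no p-value is given.

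Replication-dependent genes were those of the 4 clusters, and replacement genes were H2ax, H2az1, macroH2A, H3.3 and the H1 genes outside the clusters. Members and lists were chosen with earlier results of these data known. Named were every replacement gene and regulator, the highest and lowest member of each histone type, every member at least 2-fold apart, members at the edge of the background criterion, and up to 6 genes of each other list; further members are given by their difference, and some further list genes were chosen for their role. Python 3.11.15 (pandas 2.3.3, numpy 2.4.6, matplotlib 3.10.9) and R 4.3.3 with limma 3.58.1 were used. The calculation was tested on simulated data. Alternatives were quantile, cyclic loess and median scaling, the normexp correction (run on the median spot and background signals), the deposited value table, other filters, folds and class definitions, and exchanged arrays. Gene names and promoter windows came from RefSeq on GRCm38.p6.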

Additional observations from a re-analysis of the deposited data

How the results depend on the processing

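Several settings left the counts of replication-dependent genes within 1.5 times and the class differences within the spot spread. They were quantile, cyclic loess and median scaling, the deposited value table, the mean over a gene's probes, the filter on all arrays and leaving out germ-line genes. A setting meant for probes with 1 annotated gene left out no probe, so it was no check of probes that read several genes. After normexp the genes at least 2-fold lower numbered 2 in siRNA against high glucose and 3 in siRNA against normal glucose, and the class differences were 0.11 and 0.0733. Without a filter on dim probes the class difference of siRNA against normal glucose was 0.49. At 1.5-fold, 21 genes were higher and 11 lower in siRNA against high glucose, and 21 and 12 in siRNA against normal glucose. At 3-fold these were 2 and 0, and 1 and 0. With the siRNA and high-glucose arrays exchanged, by construction the counts of higher and lower genes were 5 and 8 with a class difference of -0.38 in siRNA against high glucose, 8 and 5 with 0.30 in high glucose against normal glucose, and 0 and 0 with -0.0429 in siRNA against normal glucose. The difference of every member named as 2-fold apart between the high-glucose arrays turned with it. With H2ax among the replication-dependent genes the class differences were 0.22 and 0.18 in siRNA against high and against normal glucose. Further alternatives were chosen after seeing the data. Without H2A genes 5 genes were higher in each of these comparisons, with class differences of 0.13 and 0.0333. Without H1 genes 3 were lower in each, with 0.25 and 0.20. Among members brighter than the median gene, 4 were higher and 2 lower with 0.62 in siRNA against high glucose, and 3 and 2 with 0.52 in siRNA against normal glucose. Of 448 member values recomputed in siRNA against high glucose, 380 stayed within the spot spread and none past 2-fold changed sign. Part of these 380 was fixed in advance. The deposited value table and the filter on all arrays gave the reported class counts and medians again. The mean over probes can move only members with more than 1 probe. H1f0, H1f1, H1f3, H1f10, H2az1, H2bc18, H2bc23, H3c15, H4c4 and H4c11 fell within 2-fold in at least 1 of 9 settings. No setting moved the median of all genes by more than 0.1. No paired analysis was possible because each group has 1 array, and leaving out replicates was not possible for the same reason.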
